A study of Homo sapiens with 18 samples.

Results

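Transcript levels of 10 genes of the Menin and MLL machinery were followed in 3 cell lines of human AML (acute myeloid leukemia) after a drug against that machinery. The genes were MEN1, KMT2A, KMT2B, PSIP1, ASH2L, WDR5, RBBP5, DOT1L, MLLT1 and MLLT3, chosen by name out of 58037 Ensembl gene IDs in the bulk count table, and all 10 were found and passed the filter on low counts in every line. The question was whether treatment changed the transcripts of the drug's own target complex. SNDX-50469, named VTP50469 in the labels, blocks the contact of Menin with MLL, and OTX015 displaces BET proteins from acetylated chromatin. Total RNA was sequenced after 16 h in 18 libraries of 8 groups. MOLM13 cells, which carry the MLL-AF9 fusion, were untreated or received 500 nM SNDX-50469, 500 nM OTX015, or both (n = 2 per group). MV4-11 cells, which carry an MLL rearrangement (MLL-AF4), were untreated or received 1000 nM SNDX-50469 (n = 2 per group). OCI-AML3 cells, which have germline MLL and mutant NPM1, were untreated or received 500 nM SNDX-50469 (n = 3 per group). The dose and the medium of MV4-11 (IMDM in place of RPMI) differed from those of the other lines, so line, dose and medium cannot be told apart there. Each genotype is represented by 1 established cell line, and the labels record no vehicle for the controls.

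Menin, the product of MEN1, is a scaffold that holds the amino-terminal part of MLL (KMT2A) or MLL2 (KMT2B) at chromatin together with LEDGF, the product of PSIP1. ASH2L, WDR5 and RBBP5 encode core subunits shared by the COMPASS family of methyltransferases, which place methyl groups on lysine 4 of histone H3. DOT1L methylates lysine 79 of histone H3, and ENL (MLLT1) and AF9 (MLLT3) link DOT1L and the super elongation complex to acetylated chromatin. In MLL-rearranged leukemia the amino-terminal part of MLL is joined to a partner such as AF9 or AF4 (AFF1) and still depends on Menin. The counts here are per gene, so reads of a fusion transcript and of the normal KMT2A, MLLT3 or AFF1 transcripts could not be separated. In bulk RNA a lower level in each cell and fewer cells that express a gene cannot be told apart.

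On GRCh38.p14 (RefSeq), MEN1 lies at chr11:64803516-64811294 on the minus strand and KMT2A at chr11:118436492-118526832 on the plus strand. KMT2B (chr19:35718003-35738878), DOT1L (chr19:2163933-2232578) and MLLT1 (chr19:6210381-6279975) share a chromosome, as do PSIP1 (chr9:15464066-15510970), WDR5 (chr9:134135199-134159968) and MLLT3 (chr9:20341669-20622499). RBBP5 lies at chr1:205086142-205121978.

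The libraries held 19320216 to 59711884 counts, with the OCI-AML3 libraries the deepest (at least 49881047). Replicates were close in MOLM13 and OCI-AML3 (common biological coefficient of variation 3.06% and 3.15%) and far apart in MV4-11 (13.2%). The share of mitochondrial counts was 10.3% in MV4-11 control replicate 1, against 5.60% to 6.68% in the other MV4-11 libraries. In MOLM13 it ran from 4.36% in a control to 6.01% in a library with both agents. All 7 myeloid markers examined were present, with a summed level of 1400 to 3740 CPM (the usual read count relative to the effective library size). Of the lymphoid markers CD3E and MS4A1, of the erythroid and megakaryocyte markers HBB and PF4, and of the epithelial markers EPCAM and KRT19 each held at most 2 counts in any library. All listed markers of those types together summed to at most 10.2 CPM for lymphoid, 5.06 CPM for erythroid and megakaryocyte and 15.4 CPM for epithelial and stromal cells.

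Promoter sequence was available from RefSeq (GRCh38.p14, the assembly that hg38 denotes) for 8 of the 10 genes. The 250 bases upstream of the annotated start are printed, 5′ to 3′, for 3 genes with higher counts under both agents in MOLM13 (KMT2A, PSIP1 and RBBP5) and for MLLT3, which rose under SNDX-50469 in MV4-11 and OCI-AML3. Capitals mark TTCCGG, a core of ETS factor sites, on either strand; this motif, the E-box CACGTG and the TATA-like TATAAA were searched on both strands and were chosen after the expression values were known.
KMT2A, chr11:118436242-118436491, plus strand: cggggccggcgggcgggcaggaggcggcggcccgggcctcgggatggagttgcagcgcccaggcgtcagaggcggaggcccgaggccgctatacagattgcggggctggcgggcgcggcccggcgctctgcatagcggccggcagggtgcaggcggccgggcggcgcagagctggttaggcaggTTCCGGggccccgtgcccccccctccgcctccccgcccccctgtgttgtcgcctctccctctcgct
PSIP1, chr9:15510971-15511220, minus strand: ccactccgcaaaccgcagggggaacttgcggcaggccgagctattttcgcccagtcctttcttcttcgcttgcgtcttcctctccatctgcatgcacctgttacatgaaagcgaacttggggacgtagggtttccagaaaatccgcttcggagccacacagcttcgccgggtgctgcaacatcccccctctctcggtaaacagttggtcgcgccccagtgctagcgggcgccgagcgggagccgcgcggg
RBBP5, chr1:205121979-205122228, minus strand: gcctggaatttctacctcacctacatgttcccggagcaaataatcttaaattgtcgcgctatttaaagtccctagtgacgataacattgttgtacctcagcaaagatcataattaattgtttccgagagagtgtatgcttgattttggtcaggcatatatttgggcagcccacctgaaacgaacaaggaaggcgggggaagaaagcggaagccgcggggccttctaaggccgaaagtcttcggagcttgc
MLLT3, chr9:20622500-20622749, minus strand: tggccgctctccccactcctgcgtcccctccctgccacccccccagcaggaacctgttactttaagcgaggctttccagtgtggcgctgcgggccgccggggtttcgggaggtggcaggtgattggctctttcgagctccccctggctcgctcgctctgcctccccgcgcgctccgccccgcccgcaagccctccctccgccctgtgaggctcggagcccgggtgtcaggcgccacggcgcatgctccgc
TTCCGG was found in the KMT2A window, in 1 of the 4 windows of WDR5, and in 14.5% of 35116 promoter windows of the same length. No member's window held TATAAA, which 10.7% of windows held, and CACGTG (6.34% of windows) was found upstream of MLLT1 and of another of the annotated starts of WDR5. PSIP1 has a second annotated start inside the gene, whose window is not printed. The KMT2A window held 31 CG dinucleotides, that of MLLT3 24, that of PSIP1 23 and that of RBBP5 12, against a median of 11 over all windows.

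In untreated cells the members differed in level by more than an order of magnitude. Per kilobase of the longest annotated transcript, untreated MOLM13 held 79.5 ± 0.669 CPM of MLLT1 (mean ± SD, n = 2, scaled over all 18 libraries), 66.1 ± 0.712 of ASH2L, 56.6 ± 1.82 of WDR5, 46.9 ± 1.70 of MEN1 and 46.4 ± 0.444 of DOT1L. Lower in the same cells were KMT2B (20.7 ± 0.200 CPM per kilobase), PSIP1 (18.7 ± 0.171), RBBP5 (12.4 ± 0.613), KMT2A (3.70 ± 0.0487) and MLLT3 (2.32 ± 0.207). MEN1 and DOT1L lay within their spread in this order, whereas KMT2A and MLLT3 were the lowest of the 10 in every line. In untreated MV4-11 the order was led by ASH2L (56.5 ± 3.02) and MLLT1 (50.5 ± 2.74) and closed by KMT2A (6.44 ± 0.427) and MLLT3 (0.191 ± 0.0485). In untreated OCI-AML3 it was led by ASH2L (48.8 ± 0.705) and WDR5 (46.8 ± 0.649, n = 3) and closed by KMT2A (4.85 ± 0.419) and MLLT3 (0.697 ± 0.0454).

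The same genes were then set between the untreated lines, in 1 fit of all 18 libraries. Line and library preparation cannot be told apart in these comparisons. Here and below, a gene is said to have risen, fallen or differed, or is called, only when its change is at least 1.25-fold and edgeR (quasi-likelihood) gives a Benjamini-Hochberg adjusted p under 0.05, and log2 differences are given ± standard error (SE). Most members differed, as did most genes: 8 of 10 between MV4-11 and MOLM13 (63.5% of all tested genes), 9 of 10 between OCI-AML3 and MOLM13 (64.2%) and 6 of 10 between MV4-11 and OCI-AML3 (67.4%). MLLT3, the gene of the fusion partner in MOLM13, was furthest apart, at 14.6 and 16.6 CPM in the untreated MOLM13 libraries, 1.51 and 1.05 in those of MV4-11, and between 4.393 and 5.001 in the OCI-AML3 controls. The lines did not overlap, and the log2 difference was -3.65 ± 0.16 for MV4-11 and -1.73 ± 0.11 for OCI-AML3, both against MOLM13 (edgeR adjusted p = 9.52e-14 and 7.80e-12). MEN1 was highest in MOLM13 (144 and 152 CPM), intermediate in OCI-AML3 (105 to 111) and lowest in MV4-11 (69.8 and 73.9), again without overlap. DOT1L and MLLT1 were likewise highest in MOLM13, by -0.97 ± 0.07 and -0.65 ± 0.06 in MV4-11 and by -1.21 ± 0.06 and -1.01 ± 0.05 in OCI-AML3 on the log2 scale.

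Other members went the opposite way. PSIP1 was lowest in MOLM13 (62.6 and 63.4 CPM), with 81.1 and 108 CPM in MV4-11 and 115 to 118 CPM in OCI-AML3, where the log2 difference from MOLM13 was 0.90 ± 0.08. RBBP5 was higher in OCI-AML3 (78.7 to 80.3 CPM) than in MOLM13 (52.2 and 56.0) or MV4-11 (48.7 and 54.3), and the latter pair overlapped (log2 difference -0.07 ± 0.07, edgeR adjusted p = 0.345). KMT2A was higher in MV4-11 than in MOLM13 by 0.80 ± 0.15, and higher in OCI-AML3 than in MOLM13 by 0.39 ± 0.13 (edgeR adjusted p = 0.0139). The second of these KMT2A differences was -0.05 once a trend with transcript length was removed (described with the treatment results), and its adjusted p was 0.0544 without MOLM13 control replicate 1 and 0.070 without replicate 2. Neither KMT2B (0.15 ± 0.07 on the log2 scale) nor ASH2L (0.21 ± 0.05) reached the fold limit between MV4-11 and OCI-AML3. Without scaling factors the differences of MEN1 (-0.26) and ASH2L (-0.24) between OCI-AML3 and MOLM13 and of KMT2B (-0.28) between MV4-11 and MOLM13 also fell inside it, and without MV4-11 control replicate 2 so did those of MLLT1 (0.28) and KMT2A (0.31) between MV4-11 and OCI-AML3.

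**Figure D1:**
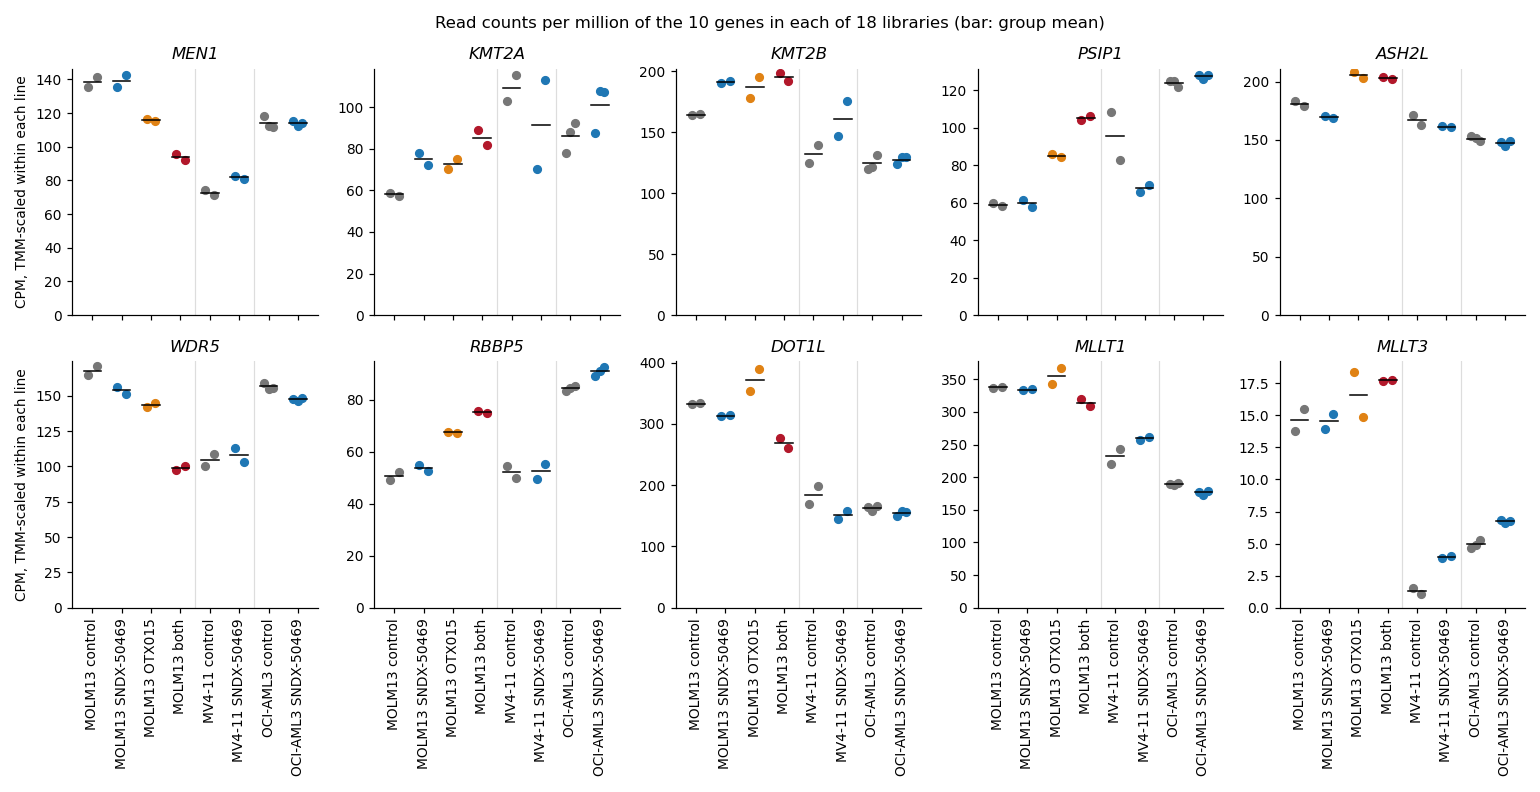
Each panel shows 1 gene, with the 8 groups on the horizontal axis and CPM (TMM-scaled within each line) on a vertical axis starting at 0; points are libraries and bars are group means. In MOLM13 the libraries with both agents are the lowest of the line for MEN1 and WDR5 and the highest for PSIP1 and RBBP5, while those with SNDX-50469 alone overlap the controls for MEN1 and PSIP1, and MLLT3 in MV4-11 goes from 1.52 and 1.08 to 3.86 and 4.02 CPM.

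In MOLM13 cells SNDX-50469 alone gave a call for 1 gene of its own target complex, KMT2A, and the level of MEN1 overlapped that of the controls. The MLL target gene MEIS1 fell by 2.60 ± 0.09 on the log2 scale in the same libraries. The other MLL targets checked, MEF2C (-1.95 ± 0.05), PBX3 (-1.77 ± 0.06) and JMJD1C (-1.32 ± 0.05), fell as well. All 4 also fell in MV4-11, with MEIS1 at -1.86 ± 0.17. In OCI-AML3, MEIS1 (-0.49 ± 0.04) and PBX3 (-0.82 ± 0.04) fell, whereas JMJD1C (-0.20 ± 0.04) and MEF2C (0.09 ± 0.03) were not called. HEXIM1, a known marker of BET inhibition, rose under OTX015 in MOLM13 (2.11 ± 0.05), and it also rose under SNDX-50469 alone in MV4-11 (0.77 ± 0.15) and OCI-AML3 (0.33 ± 0.03). Of the 10 members 1 rose and 0 fell, against 8.06% of all 14360 tested genes that rose and 5.24% that fell, a share close to that of the table. The treated and control libraries of 7 of the 10 did not overlap. The share of all tested genes without overlap was not computed, so this count cannot be read as a shift of the members. The median log2 change of the members was -0.00, and that of all tested genes 0.01. MEN1 stood at 136 and 142 CPM in the control and at 136 and 143 CPM in the treated libraries, a log2 change of 0.01 ± 0.05 (edgeR adjusted p = 0.929). The treated and control libraries overlapped for MEN1, and so did those of PSIP1 (59.7 and 58.5 against 61.7 and 57.9 CPM) and MLLT3 (13.77 and 15.49 against 13.95 and 15.11 CPM). At an unadjusted p below 0.05, 5 of the 10 members passed, but the share of all tested genes that did so was not computed. The log2 changes of the 9 members that were not called ranged from -0.12 ± 0.04 (WDR5) to 0.22 ± 0.04 (KMT2B).

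KMT2A was the 1 member called, with 58.9 and 57.4 CPM in the control and 77.9 and 72.3 CPM under SNDX-50469. Both treated libraries lay above both controls, and the log2 change was 0.37 ± 0.06 (edgeR adjusted p = 3.83e-07). KMT2A has 1 of the longest messenger RNAs of the table, 16.7 kb in its longest annotated transcript, and long transcripts as a class moved in these libraries. The 562 tested genes with a transcript of at least 10 kb had a median log2 change of 0.21, with 27.8% of them called higher, whereas the 3483 genes with only transcripts under 2 kb had a median of -0.09. With a smooth trend on transcript length removed from every library, an alternative added after KMT2A's values were seen, its log2 change was 0.10 (edgeR adjusted p = 0.181). It was also not called without replicate 1 of the treated group (0.31, below the fold limit) or in 1 fit of all libraries (0.34, edgeR adjusted p = 0.142). RNA integrity values were not analysed here, and whether length-related RNA quality took part in the KMT2A result was not tested. The adjustment removes any shift that long transcripts share, whatever its source, so it cannot decide this.

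OTX015 alone raised PSIP1, RBBP5 and KMT2A in MOLM13 cells. These were 3 of the 10 members (23.5% of all tested genes rose), and 0 fell (24.7% of all tested genes fell), with a median log2 change of 0.18 against 0.01 for all tested genes. PSIP1, which encodes the chromatin reader LEDGF, went from 59.7 and 58.5 to 86.0 and 84.3 CPM, a log2 change of 0.53 ± 0.05 (edgeR adjusted p = 2.91e-13). RBBP5, a core COMPASS subunit, went from 49.2 and 52.3 to 67.6 and 67.2 CPM, a log2 change of 0.41 ± 0.06 (edgeR adjusted p = 6.86e-09). The treated libraries stood above the controls for both genes, and both calls held in each of 13 alternatives. KMT2A was called at 0.32 ± 0.06, on the fold limit itself, and its call was lost in 8 of 13 alternatives, with a log2 change of -0.10 once the length trend was removed. The 562 genes with a transcript of at least 10 kb had a median log2 change of 0.35 in this comparison.

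MEN1 moved the other way under OTX015, from 136 and 142 to 116 and 116 CPM. The libraries did not overlap, and the log2 change of -0.26 ± 0.05 (edgeR adjusted p = 2.32e-06) stayed below the fold limit. WDR5, whose product holds the other core subunits to MLL, behaved likewise, from 165 and 171 to 142 and 145 CPM (-0.22 ± 0.04). The remaining log2 changes were between 0.07 ± 0.04 (MLLT1) and 0.18 ± 0.04 (KMT2B and ASH2L), none of them called.

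The combination of both agents changed 5 of the 10 members in MOLM13, 3 higher and 2 lower, where 31.2% of all tested genes rose and 30.9% fell. Their share was thus close to that of the table as a whole, and the median log2 change of the members was 0.21 against 0.02. WDR5 fell most, from 165 and 171 to 97.5 and 100.2 CPM, a log2 change of -0.76 ± 0.05 (edgeR adjusted p = 2.9e-23), or 0.590 of the control. MEN1 fell to 95.5 and 92.3 CPM, a log2 change of -0.56 ± 0.05 (edgeR adjusted p = 1.11e-16), or 0.677 of the control. For both genes every library with the combination lay below every library of the other 3 MOLM13 groups. PSIP1 rose to 104.5 and 106.6 CPM (0.84 ± 0.05, edgeR adjusted p = 2.53e-22) and RBBP5 to 75.5 and 74.7 CPM (0.56 ± 0.06, edgeR adjusted p = 1.1e-13), in each case above every library of the other groups. These 4 calls held in each of 13 alternatives, with log2 changes of -0.80 to -0.67 for WDR5, -0.60 to -0.47 for MEN1, 0.80 to 0.94 for PSIP1 and 0.50 to 0.66 for RBBP5.

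KMT2A stood at 88.8 and 81.7 CPM with both agents, a log2 change of 0.55 ± 0.06 (edgeR adjusted p = 1.88e-13). Long transcripts had a median log2 change of 0.42 here, and the log2 change of KMT2A was 0.05 with the length trend removed (edgeR adjusted p = 0.379). DOT1L stood at 332 and 334 CPM in the control and at 278 and 260 CPM with both agents, without overlap, and its log2 change of -0.31 ± 0.04 (edgeR adjusted p = 1.65e-09) lay just under the fold limit. With the length trend removed, DOT1L, which has a transcript of 7.65 kb, was called at -0.58, and it was called at -0.34 without the filter on low counts and at -0.35 without replicate 1 of the combination. KMT2B (0.25 ± 0.04), MLLT3 (0.27 ± 0.10), ASH2L (0.17 ± 0.04) and MLLT1 (-0.11 ± 0.04) were not called. Of the MLL targets checked, MEIS1 (-0.50 ± 0.07), MEF2C (-1.11 ± 0.05) and PBX3 (-0.34 ± 0.05) fell with the combination. JMJD1C was not called (-0.15 ± 0.05). Each of these targets was higher with the combination than with SNDX-50469 alone, MEIS1 by 2.10 ± 0.10, MEF2C by 0.83 ± 0.06, PBX3 by 1.44 ± 0.06 and JMJD1C by 1.17 ± 0.05. The summed level of the myeloid markers stood at 2360 to 2400 CPM in the control, 2080 to 2120 with OTX015 and 1770 to 1840 with the combination, where 5 of the 7 fell and 1 rose. With OTX015 alone 6 of the 7 fell (median log2 change -0.96, lowest -4.53 for MPO), and with SNDX-50469 alone 3 rose and 0 fell. Of all tested genes 30.9% fell and 31.2% rose with the combination, and 24.7% fell with OTX015. With SNDX-50469 8.06% of them rose and 5.24% fell. The part of these markers in the member results was not tested.

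**Figure D2:**
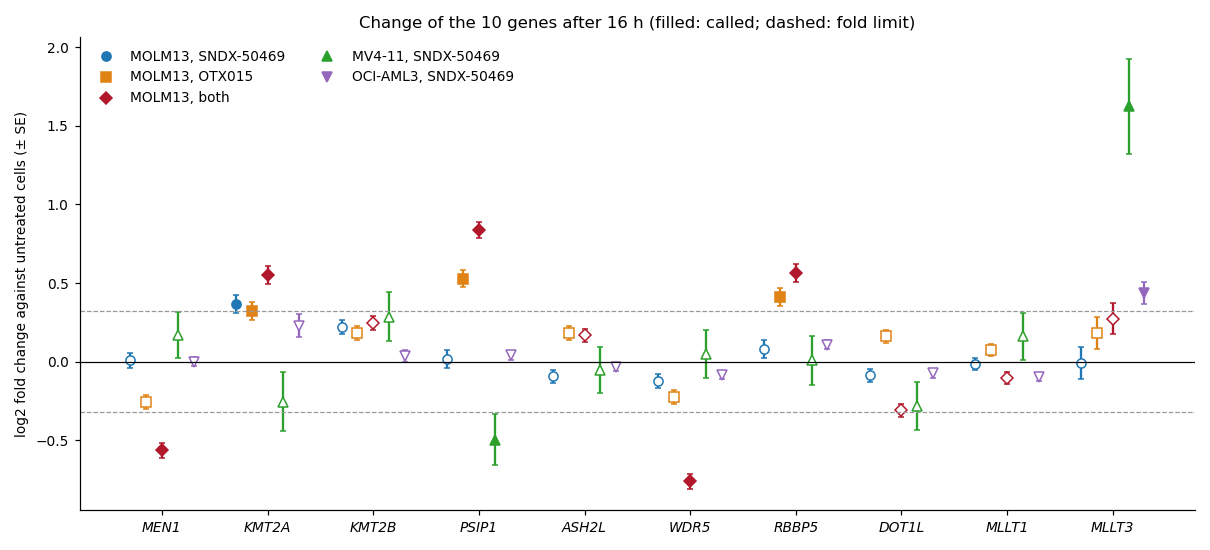
The vertical axis gives the log2 fold change of each of the 10 genes against untreated cells of the same line (± SE), for 5 treatments marked by colour and shape; filled symbols are called and dashed lines mark the 1.25-fold limit. WDR5 (-0.76) and PSIP1 (0.84) under both agents and MLLT3 in MV4-11 (1.63) stand furthest from 0, and the MV4-11 bars are the widest.

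Setting the combination against each single agent gives what the second agent added. The comparisons share libraries with those above and are given side by side. Added to SNDX-50469, OTX015 raised PSIP1 (0.82 ± 0.05) and RBBP5 (0.48 ± 0.06) and lowered WDR5 (-0.64 ± 0.05) and MEN1 (-0.57 ± 0.05), so that 2 of 10 members rose and 2 fell where 27.9% and 29% of all tested genes did. Added to OTX015, SNDX-50469 lowered WDR5 (-0.54 ± 0.05, from 142 and 145 to 97.5 and 100.2 CPM) and DOT1L (-0.47 ± 0.04, from 354 and 390 to 278 and 260 CPM) and raised 0, against 16.5% of all tested genes that fell and 18.4% that rose. MEN1 (-0.31 ± 0.05) and PSIP1 (0.31 ± 0.05) lay just inside the fold limit in that comparison, and both were called without replicate 1 of the combination (-0.33 and 0.33).

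The interaction subtracts the SNDX-50469 effect seen without OTX015 from the one seen in its presence, and tests whether the effects of the agents simply add on the log2 scale. It was called for WDR5 (-0.41 ± 0.06, edgeR adjusted p = 2.72e-07) and DOT1L (-0.38 ± 0.06, edgeR adjusted p = 2.48e-07), 2 of 10 members lower and 0 higher, against 12.7% and 11.5% of all tested genes. Without OTX015 the log2 change with SNDX-50469 was -0.12 ± 0.04 for WDR5 and -0.09 ± 0.04 for DOT1L, neither of them called, and in its presence it was -0.54 ± 0.05 and -0.47 ± 0.04, both called. The WDR5 interaction held in each of 17 alternatives. The DOT1L interaction was -0.31 without OTX015 replicate 2, the library with the higher DOT1L level (390 against 354 CPM), and -0.32 in 1 fit of all libraries, in neither case called. MEN1 (-0.31 ± 0.07) and PSIP1 (0.29 ± 0.08) had interactions under the fold limit, with adjusted p of 0.00012 and 0.00137 in edgeR, and both were called without SNDX-50469 replicate 1 (-0.35 and 0.34).

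In MV4-11 cells, SNDX-50469 raised 1 member and lowered 1, where 11.4% of all 15486 tested genes rose and 9.34% fell. MLLT3 went from 1.52 and 1.08 CPM (30 and 33 counts) to 3.86 and 4.02 CPM (109 and 117 counts). Both treated libraries stood well above both controls, with a log2 change of 1.63 ± 0.30 (3.09-fold, edgeR adjusted p = 0.00116) that ranged from 1.37 to 1.86 over 13 alternatives and was called in each. Even after treatment this level was below the lowest untreated MOLM13 library (13.8 CPM, each line scaled on its own). PSIP1 went from 108 and 83.1 to 65.9 and 69.5 CPM, a log2 change of -0.50 ± 0.16 (edgeR adjusted p = 0.0371). The higher PSIP1 control is replicate 1, the library with 10.3% mitochondrial counts, and without it the log2 change was -0.31 (edgeR adjusted p = 0.443); without replicate 1 of the treated group it was -0.49 (edgeR adjusted p = 0.128). PSIP1 was also not called without scaling factors (-0.45) or with limma-voom (-0.45). The part of the mitochondrial share in this result was not tested.

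The other 8 members were not called in MV4-11. MEN1 stood at 74.1 and 71.5 CPM in the control and 82.7 and 81.0 CPM under SNDX-50469 (0.17 ± 0.15, edgeR adjusted p = 0.458). KMT2A had 103 and 116 CPM in the control but 70.4 and 113 CPM in the treated libraries, so 1 treated library was low and the other was not. The groups overlapped (-0.25 ± 0.19), the log2 change was -0.63 and called without treated replicate 2, and it was 0.02 without treated replicate 1. In that low library the median of long transcripts was also 0.19 below its mean over the line on the log2 scale. The standard errors of these 8 members were 0.15 to 0.19. KDM5B, a demethylase gene outside the members, was not called in MV4-11 at -0.36 ± 0.16 (edgeR adjusted p = 0.11). A change of the size of KMT2A's in MOLM13 (0.37) could thus have gone uncalled in these libraries. Whether the MV4-11 replicates were separate cultures is not stated, and their p-values measure only the spread between these samples.

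In OCI-AML3 cells, SNDX-50469 raised 1 member, MLLT3, and lowered 0, where 8.58% of all 16611 tested genes rose and 4.53% fell. MLLT3 went from 4.66, 4.92 and 5.31 CPM to 6.87, 6.59 and 6.75 CPM without overlap, a log2 change of 0.44 ± 0.07 (1.35-fold, edgeR adjusted p = 0.000324) that was called in each of 15 alternatives. MEN1 stood at 118, 112 and 112 CPM in the control and 116, 112 and 114 CPM in the treated libraries, a log2 change of 0.00 ± 0.03 (edgeR adjusted p = 0.999). Its SE of 0.03 is the smallest for MEN1 among the 3 lines, and the libraries overlapped. KMT2A had 77.8, 88.2 and 92.2 CPM in the control and 87.6, 108 and 107 CPM under SNDX-50469, a log2 change of 0.23 ± 0.07 (edgeR adjusted p = 0.0237) below the fold limit. It was called at 0.32 without treated replicate 1, while the median of 633 long transcripts was 0.07. Small shifts below the fold limit were seen for RBBP5 (0.11 ± 0.03), MLLT1 (-0.10 ± 0.03) and WDR5 (-0.09 ± 0.03), all with adjusted p below 0.05 in edgeR.

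The response to SNDX-50469 was compared between lines directly. MLLT3 responded more in MV4-11 than in MOLM13, by 1.67 ± 0.22 on the log2 scale (edgeR adjusted p = 2.78e-05), and more than in OCI-AML3, by 1.20 ± 0.21 (edgeR adjusted p = 0.000325). The log2 change of PSIP1 in MV4-11 minus that in MOLM13 was -0.50 ± 0.13, and minus that in OCI-AML3 -0.55 ± 0.11, the change being downward in MV4-11 and near 0 in the other lines. For KMT2A the same differences were -0.62 ± 0.21 and -0.50 ± 0.18, with a negative value in MV4-11 that was not called and positive values in the others. These 3 genes made 3 of 10 members in each comparison, against 20.6% and 23.8% of all tested genes. Without MV4-11 treated replicate 1 the KMT2A differences were -0.32 and -0.20 and not called, and without MV4-11 control replicate 1 the PSIP1 differences were -0.29 (not called) and -0.34. Between OCI-AML3 and MOLM13, 0 of 10 members differed in edgeR's test against 4.1% of all tested genes. There 1 member had an unadjusted p below 0.05, MLLT3 (0.47, adjusted p = 0.0766 in edgeR), and DESeq2 called it (0.48, adjusted p = 0.0421). All these contrasts share 1 estimate of spread (6.14%), which is smaller than that of MV4-11 alone.

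**Figure D3:**
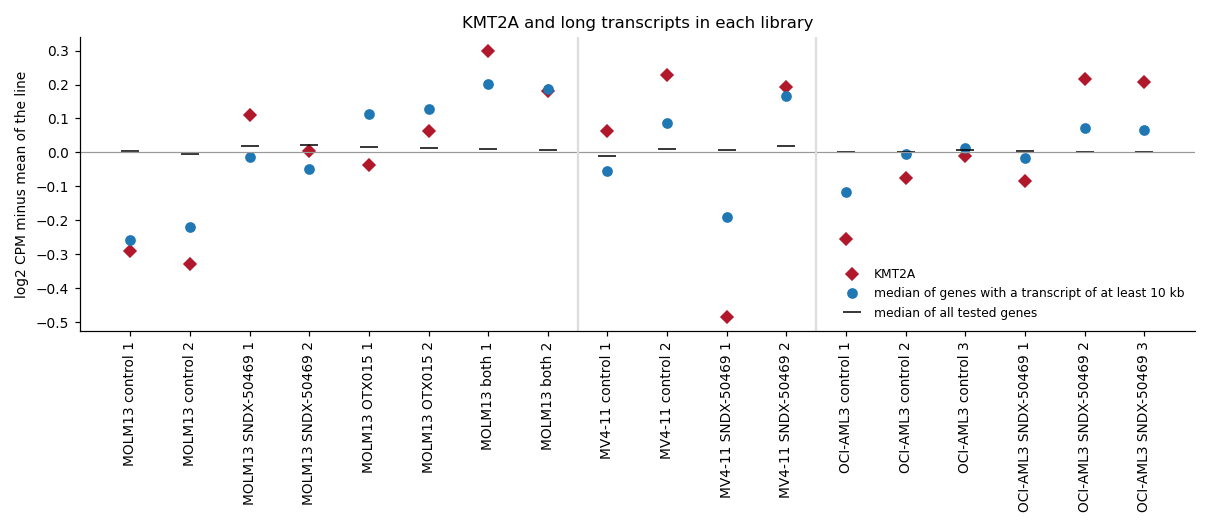
For each of the 18 libraries the vertical axis gives the log2 CPM minus its mean over the libraries of the same line, for KMT2A (diamonds), for the median of genes with a transcript of at least 10 kb (circles) and for the median of all tested genes (dashes). The 2 MOLM13 controls are low for both KMT2A (-0.29 and -0.33) and long transcripts (-0.26 and -0.22), as is the first treated MV4-11 library (-0.49 and -0.19), while the median of all genes is at most 0.023.

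Genes around the complex were read from 5 lists of 42 genes in all. Of the 13 other COMPASS family subunits, SNDX-50469 alone in MOLM13 raised the enhancer methyltransferase genes KMT2D (0.56 ± 0.05) and KMT2C (0.37 ± 0.05) and lowered 0. Of all tested genes 8.06% rose and 5.24% fell there. KMT2D and KMT2C have transcripts of 20.7 and 16.9 kb. With the length trend removed their log2 changes were 0.25 and 0.10, neither called. OTX015 alone raised 3 of the 13 and lowered 0 (log2 changes from -0.311 to 0.764), where 23.5% of all tested genes rose and 24.7% fell. These counts were 1 and 1 once the length trend was removed. The combination raised 5 of the 13 and lowered 2, where 31.2% of all tested genes rose and 30.9% fell, with KMT2C at 0.99 ± 0.05, the demethylase gene KDM6A at 0.80 ± 0.08, HCFC2 at 0.71 ± 0.12, SETD1B at 0.60 ± 0.05 and NCOA6 at 0.34 ± 0.06 among those that rose, and PAXIP1 (-0.54 ± 0.07) and CXXC1 (-0.34 ± 0.05) as those that fell. With the length trend removed these counts became 3 and 3. The list's median log2 change was 0.09 with the combination, where that of all genes was 0.02. Under SNDX-50469, 0 of the 13 were called in MV4-11 or OCI-AML3 by edgeR, with 1 and 5 at an unadjusted p below 0.05. Of all tested genes 20.7% were called in MV4-11 and 13.1% in OCI-AML3. The share of all tested genes at that unadjusted p was not computed, here or for the lists below.

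Among 9 genes of the PAF complex, which tethers MLL to elongating RNA polymerase, and of other proteins that bind Menin or MLL, the combination raised 5 and lowered 1, against 31.2% and 30.9% of all tested genes. JUND, which encodes an AP-1 factor bound by Menin, rose by 0.92 ± 0.04, from 419 and 401 to 808 and 748 CPM, and the PAF complex genes RTF1 (0.69 ± 0.05), CTR9 (0.68 ± 0.05) and CDC73 (0.67 ± 0.06) rose with it. HDGFL2, a paralog of PSIP1, rose by 0.34 ± 0.04, and SKIC8 fell (-0.37 ± 0.07). OTX015 alone raised JUND, CDC73, RTF1 and CTR9, and SNDX-50469 alone raised or lowered 0 of the 9 in MOLM13 (3 at an unadjusted p below 0.05) and lowered CDC73 in MV4-11 (-0.51 ± 0.17). In MOLM13 23.5% of all tested genes rose with OTX015, and 13.3% were called with SNDX-50469. In MV4-11 9.34% of all tested genes fell. The counts for the combination were the same with the length trend removed.

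Of 11 super elongation complex genes, 10 were tested, since ELL3 did not pass the filter on low counts. With the combination 3 rose and 2 fell, against the same 31.2% and 30.9%. ELL2 (2.66 ± 0.21), AFF1 (1.45 ± 0.05) and AFF4 (1.44 ± 0.07) rose, while AFF3 (-1.84 ± 0.06) and EAF2 (-0.35 ± 0.10) fell. With the length trend removed EAF2 was not called (-0.06), and EAF1 (-0.33) and CCNT1 (-0.34) were called lower. AFF1 and AFF4 encode the scaffolds of the complex and ELL2 an elongation factor within it. AFF3 went from 107.6 and 118.5 CPM in the control to 178.7 and 160.7 under SNDX-50469, 21.3 and 22.0 under OTX015 and 30.7 and 32.6 under both. AFF1 is the fusion partner gene in MV4-11, where it fell by 0.55 ± 0.18 on the log2 scale under SNDX-50469, and EAF2 fell there too (-0.70 ± 0.16). Of all tested genes 9.34% fell in MV4-11 and 4.53% in OCI-AML3. In OCI-AML3, AFF3 (-0.57 ± 0.06) and EAF2 (-0.49 ± 0.04) fell. In MOLM13, AFF3 rose under SNDX-50469 (0.58 ± 0.05), the 1 gene of the list called there, against 13.3% of all tested genes. OTX015 alone raised 4 of the 10 tested genes and lowered 2 (log2 changes from -2.385 to 2.192). Of all tested genes 23.5% rose and 24.7% fell there. CCNT2, a cyclin T gene, was among those that rose (0.42 ± 0.09, and 0.24 and not called with the length trend removed). Adding OTX015 to SNDX-50469 raised CDK9 (0.44 ± 0.05), which encodes the kinase that cyclin T binds.

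Of the 4 other genes of the DOT1L complex and the YEATS family, MLLT6 fell with OTX015 alone (-0.70 ± 0.05) and with the combination (-0.69 ± 0.05). MLLT10, whose product AF10 is a cofactor of DOT1L, fell in MV4-11 (-0.48 ± 0.16, edgeR adjusted p = 0.0453). YEATS4 fell there too (-0.46 ± 0.15, edgeR adjusted p = 0.0402), where 9.34% of all tested genes fell. Leaving out single libraries was not tried for listed genes outside the members. YEATS2 rose with OTX015 alone (0.35 ± 0.05), a call that was lost with the length trend removed (0.19). SNDX-50469 alone changed 0 of the 4 in MOLM13 (3 at an unadjusted p below 0.05), where 13.3% of all tested genes were called.

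The H3K4 demethylases oppose the methyltransferases of the complex. The combination raised 3 of the 5 and lowered 0, against 31.2% and 30.9% of all tested genes, with KDM5B at 1.51 ± 0.05 (from 62.8 and 70.3 to 197 and 182 CPM), KDM1B at 0.79 ± 0.05 and KDM5A at 0.69 ± 0.05. OTX015 alone raised the same 3 genes by 0.88 ± 0.05, 0.46 ± 0.05 and 0.45 ± 0.05, where 23.5% of all tested genes rose. The list's median was 0.69 with the combination and 0.06 with SNDX-50469 alone, where 0 of the 5 were called in edgeR's test (2 at an unadjusted p below 0.05). Of all tested genes 13.3% were called with SNDX-50469 alone. KDM5A has a transcript of 10.7 kb and was not called for the combination with the length trend removed (0.30), while KDM1A, at -0.21 and not called otherwise, was then called lower (-0.36). For OTX015 alone the KDM5A call was also lost (0.13).

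The interaction of the agents was also called for 7 of the 41 tested genes of these lists, where 11.5% of all tested genes had a positive and 12.7% a negative one. It was positive for KDM5B (0.69 ± 0.07), HCFC2 (0.55 ± 0.18) and JUND (0.38 ± 0.06) and negative for KMT2D (-0.63 ± 0.07), CCNT2 (-0.50 ± 0.12), YEATS2 (-0.39 ± 0.08) and CCNT1 (-0.34 ± 0.08). With the length trend removed CCNT1 was not called (-0.29) and AFF1 was called (0.39, from 0.30). Added to SNDX-50469, OTX015 lowered KMT2D (-0.43 ± 0.05) and SETD1A (-0.35 ± 0.05), and added to OTX015, SNDX-50469 lowered MLLT10 (-0.40 ± 0.06).

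**Figure D4:**
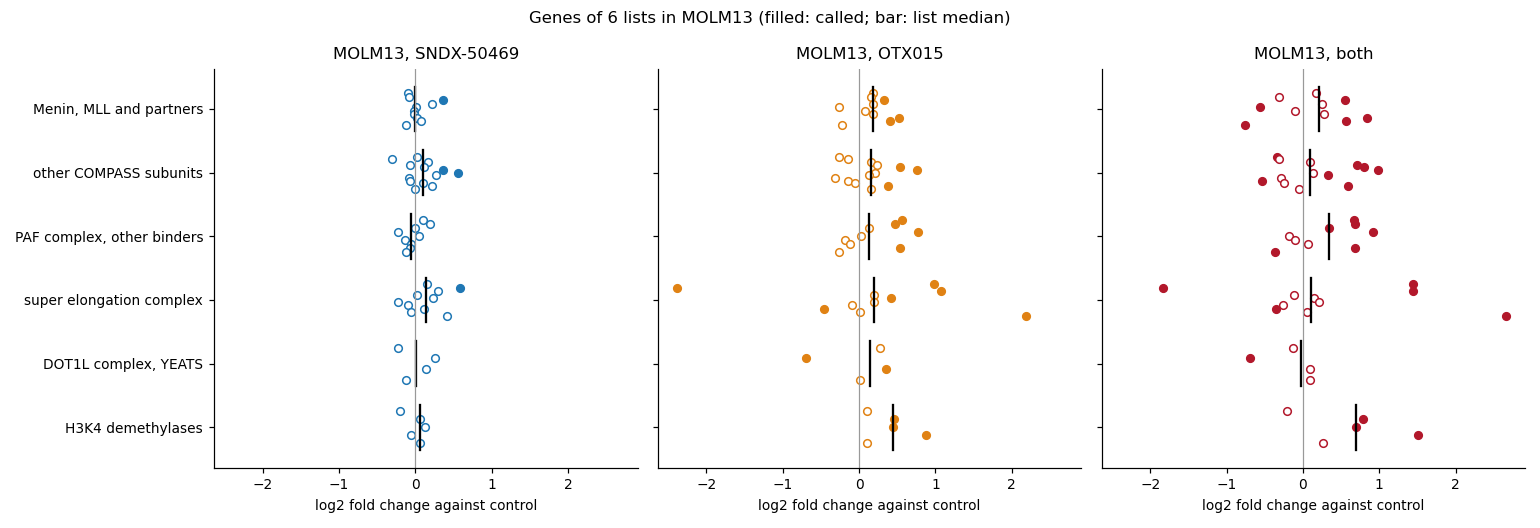
The 3 panels show MOLM13 cells with SNDX-50469, OTX015 or both, the horizontal axis gives the log2 fold change against control, and each point is a gene of 1 of 6 lists, filled where called, with a bar at the list's median. Points lie between -0.30 and 0.585 under SNDX-50469 and spread further under both agents, where AFF3 (-1.84) and ELL2 (2.66) mark the ends.

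Genes whose pattern was most like that of MEN1 and KMT2A were sought among 9085 genes by Pearson's r of log2 CPM centred on each line, over the 18 libraries, which share depth, scaling and treatment groups. For MEN1 these were TNFRSF8 (r = 0.98), which encodes the lymphocyte activation receptor CD30, RITA1 (0.98) and MON1A (0.97). For KMT2A they were BPTF (r = 0.92), a subunit of a chromatin remodeler, BRCA1 (0.92), a DNA repair gene, and the deubiquitinase gene USP24 (0.92). The last 3 have transcripts of 11.8, 7.61 and 10.8 kb.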

How the data were processed

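Counts of RNA sequencing reads per gene were deposited by the authors as whole numbers, not normalized, in 1 table. STAR and hg38 appear in the submitters' processing notes (no versions), but TopHat2 and Cufflinks2 in the methods of the study, so the aligner behind the counts is unsure. No source used here gives the counting program, its strand setting or the annotation, so overlapping or antisense genes could not be told apart from the members. The table held 0 rows of the spike-ins that the methods mention.

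Of 58037 gene IDs, 55646 matched a symbol, and the IDs without one held 0.156% of counts. The quasi-likelihood test of edgeR 4.0.16 in R 4.3.3 was run on them after TMM scaling and filterByExpr, by line (8, 4 and 6 libraries) and, between lines, in 1 fit of all 18. CPM values of treated cells were scaled within a line. Calls needed an adjusted p below 0.05 and a 1.25-fold change. Every pair of replicates differed by more than counting noise (chi-square 1.46 to 43.9 per degree of freedom), and a count of 3, the limit for a count of 0, equals 0.0502 to 0.155 CPM. This covers counting error only. Replicates of MOLM13 and OCI-AML3 are biologic ones in the study's account. The MV4-11 libraries were numbered by their titles, and their descriptions give other numbers.

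The members and gene lists were chosen with earlier results of these data known. The genes named were all members, those of the 5 pathway lists called in at least 1 comparison with the largest rise and fall in each, the treatment check genes and the 3 genes most like MEN1 and KMT2A; list genes called only between lines were left out for length. Lengths per kilobase used the longest transcript of GENCODE (GRCh37-lifted, lengths only) in place of the planned RefSeq exon length, which the reference table did not give. The bounds of 10 and 2 kb were set after values were seen. Alternatives were other scalings, no filter, DESeq2 1.42.0, limma-voom (limma 3.58.1), a replicate block, leaving out each library, 1 fit of all libraries and, added after seeing the data, removal of a length trend. The scripts were tested on simulated counts. Protein sequences were not used here.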

Additional observations from a re-analysis of the deposited data

Results flagged for a closer look

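The effect of SNDX-50469 in MOLM13 differed with and without OTX015 for WDR5 (interaction -0.41 ± 0.06) and DOT1L (-0.38 ± 0.06), tested as an interaction in edgeR (adjusted p = 2.72e-07 and 2.48e-07). The response to SNDX-50469 differed between MV4-11 and MOLM13, by the test of the difference itself, for MLLT3 (1.67 ± 0.22), PSIP1 (-0.50 ± 0.13) and KMT2A (-0.62 ± 0.21, edgeR adjusted p = 0.0375). Between MV4-11 and OCI-AML3 it differed for the same 3 genes, MLLT3 (1.20 ± 0.21), PSIP1 (-0.55 ± 0.11) and KMT2A (-0.50 ± 0.18, edgeR adjusted p = 0.0475). For MLLT3 the MV4-11 controls held only 30 and 33 counts. As given above, leaving out a single library lost both KMT2A differences, the PSIP1 difference from MOLM13 and the DOT1L interaction. The differences between lines used a common spread (6.14%) smaller than that of MV4-11 alone (13.2%). Line, dose and medium cannot be told apart for MV4-11. The groups hold 2 or 3 libraries, so no test for single outlying libraries was made.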

How the results depend on the processing

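Of the 49 calls of members over 14 comparisons, 35 were made in the same direction under every alternative and 14 were lost under at least 1, while 74 of the 91 results not called were called under none. The count of members called went from 1 to 0 for SNDX-50469 in MOLM13 with the length trend removed and in 1 fit of all libraries (range 0 to 1 leaving out a library, 0 without SNDX-50469 replicate 1), from 2 to 1 for the interaction in 1 fit of all libraries (1 to 4, with 4 without SNDX-50469 replicate 1 and 1 without OTX015 replicate 2), and from 2 to 1 for MV4-11 without scaling factors and with limma-voom (1 to 3, with 1 without control replicate 1 or treated replicate 1). It went from 0 to 1 for OCI-AML3 minus MOLM13 with DESeq2 and with the length trend removed. Leaving out a library gave 2 to 4 for the combination against OTX015 (4 without combination replicate 1) and 1 to 2 for OCI-AML3 (2 without treated replicate 1). Where only the lone library of a group was left, it was assumed to vary like the others.

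Reversed signs numbered 72, 70 of them for values called in neither setting. The other 2 were KMT2A with the length trend removed, at -0.104 for OTX015 and -0.045 for untreated OCI-AML3 against MOLM13. That setting also gave KMT2B -0.067, DOT1L -0.052 and MLLT1 -0.003 for OTX015; KMT2B -0.076 for the combination; KMT2A -0.043 and KMT2B -0.158 for the combination against SNDX-50469; KMT2B -0.008 and ASH2L 0.007 for the combination against OTX015; and KMT2A 0.061 for the interaction and 0.078 for OCI-AML3 minus MOLM13, RBBP5 -0.007 in MV4-11 and KMT2B -0.009 in OCI-AML3. For SNDX-50469 in MOLM13, MEN1 and PSIP1 were -0.013 and -0.002 with DESeq2 size factors and with DESeq2, -0.027 and -0.016 without the filter, and -0.023 and -0.013 in 1 fit; MLLT1 was 0.009, 0.033 and 0.034 and MLLT3 0.013 and 0.037 with upper-quartile, no scaling and (MLLT1) limma-voom. ASH2L for the combination against OTX015 was 0.038 with upper-quartile and without scaling, 0.029 with limma-voom and 0.016 in 1 fit. With limma-voom MLLT1 was 0.038 for the combination and 0.004 for it against SNDX-50469. RBBP5 in MV4-11 was -0.003 with DESeq2 size factors and DESeq2 and -0.011 in 1 fit. In OCI-AML3, MEN1 was 0 to 3 decimals with DESeq2 size factors and DESeq2 and -0.004 in 1 fit, and ASH2L 0.018 without scaling and 0.036 with limma-voom. Under upper-quartile, no scaling and limma-voom, MEN1 for OCI-AML3 minus MOLM13 was -0.014, -0.001 and -0.012 and RBBP5 for untreated MV4-11 against MOLM13 was 0.028, 0.066 and 0.042; ASH2L for MV4-11 minus OCI-AML3 was 0.005 with upper-quartile scaling.

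Leaving out a library turned the sign within these ranges: in MOLM13 with SNDX-50469, MEN1 -0.033 to 0.038, PSIP1 -0.034 to 0.06 and MLLT3 -0.095 to 0.075; MLLT3 for the interaction -0.04 to 0.265; for the combination against OTX015, KMT2B -0.008 to 0.126, ASH2L -0.038 to 0 and MLLT3 -0.056 to 0.249; in MV4-11, KMT2A -0.632 to 0.017, WDR5 -0.049 to 0.117 and RBBP5 -0.067 to 0.061; in OCI-AML3, MEN1 -0.014 to 0.03; for MV4-11 minus MOLM13, KMT2B -0.051 to 0.194 and RBBP5 -0.139 to 0.015; MEN1 for OCI-AML3 minus MOLM13 -0.014 to 0.063; and ASH2L for MV4-11 minus OCI-AML3 -0.069 to 0.017. The cause was not tested.

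Over all genes, calls in MV4-11 numbered 3208 and 1798 without control replicate 1, 1637 without treated replicate 1 and 5934 in 1 fit, and those for OCI-AML3 minus MOLM13 numbered 721 and 462 to 473 without single libraries. The share of calls that were higher was 60.6% for SNDX-50469 in MOLM13, and 74.4% without scaling factors, 49.5% without the filter, 50% with DESeq2 and 47.6% in 1 fit; in OCI-AML3 it was 65.5%, and 76.5% without scaling factors and 50.8% with limma-voom; for the interaction it was 47.6%, and 58.8% in 1 fit. Leaving out scaling factors moved the median of all genes to 0.115 for the combination. Same-numbered libraries did not deviate together (r = -0.05 to 0.032 in MOLM13, 0.115 in MV4-11, 0.007 to 0.113 in OCI-AML3), so the numbers were not used as pairs, and a replicate block left the counts of members called at 1, 3, 5, 4, 2 and 2 in MOLM13, 2 in MV4-11 and 1 in OCI-AML3. With 30 counts in the lowest library, MLLT3 in MV4-11 is the member most limited by depth.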
